A study of Mus musculus with 8 samples.

Results

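The Ly6 and Ifitm genes are small genes for surface and membrane proteins that interferon induces, and 5 of them were followed in blood stem cells of mice given an interferon inducer: Ly6a, Ly6e, Ifitm1, Ifitm2 and Ifitm3. They were picked by name, out of 53715 genes counted and 13992 tested, with their levels in these same libraries already known. Ly6a and Ifitm1 were of interest because they stood higher in 1 genotype, so the genotype differences of the 5 genes are given as a description, with no test. All 5 passed the filter on low counts.

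The libraries were made from mouse haematopoietic stem cells, taken from bone marrow and sorted as LSK CD48- CD150+, that is lineage-negative cells with Sca-1 and Kit on their surface, without CD48 and with CD150. There were 4 wild-type mice and 4 mice labelled Gata2; Mx1-Cre heterozygote, aged 8 to 12 weeks. Every mouse of both genotypes had received 6 doses of pIpC, a double-stranded RNA mimic that makes animals produce type I interferon. Mx1-Cre is a recombinase transgene driven by an interferon-responsive promoter, active in many tissues besides blood. The labels name it for the heterozygotes only, so an effect of the transgene and of the Gata2 allele cannot be told apart. No untreated mice were among the samples analysed, so what pIpC did to the 5 genes was not measured.

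Ly6 proteins are small, disulphide-bonded folds held on the outer face of the cell membrane by a glycosylphosphatidylinositol (GPI) anchor. Ly6a encodes Sca-1, the antigen that defines the stem cell gate of mouse marrow and that rises on many marrow cells when interferon is present. Ly6e, its neighbour, encodes an anchored protein known to limit entry of coronaviruses. Ifitm proteins sit in membranes and hinder the fusion of enveloped viruses with the cell: Ifitm1 is found mainly at the cell surface, and Ifitm2 and Ifitm3 mainly in endosomes. Stem cells are known to express Ifitm genes without added interferon. Interferon acts through JAK kinases and transcription factors that bind interferon-response elements in the promoters of their targets.

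Both families lie in clusters of GRCm38. Ly6e (ENSMUSG00000022587.14) occupies chr15:74955051-74959905 on the plus strand. Ly6a (ENSMUSG00000075602.10) occupies chr15:74994877-74998031 on the minus strand, 35.0 kb further on. Ifitm2 (ENSMUSG00000060591.9) lies at chr7:140954837-140955987 on the minus strand. Ifitm1 (ENSMUSG00000025491.14) follows after 11.2 kb at chr7:140967221-140969825 on the plus strand. Ifitm3 (ENSMUSG00000025492.6) lies 39.8 kb beyond that at chr7:141009586-141010770 on the minus strand. The 5 genes are short, with merged exons of 655 bases (Ifitm2) to 3784 bases (Ly6e).

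Within these clusters nearly all fragments fell on the 5 genes. Summed over the 8 libraries, Ly6e collected 90348 fragments and Ly6a 18842, against 90 for Ly6i and 109 for Ly6c1, the related genes on either side of Ly6a. Ifitm1 collected 139656, Ifitm3 101521 and Ifitm2 75391, against 226 for Ifitm6 and 16 for Ifitm5. The highest count of any other gene in the mapped stretches was 515, for Pgghg, which lies beyond Ifitm5.

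**Figure D1:**
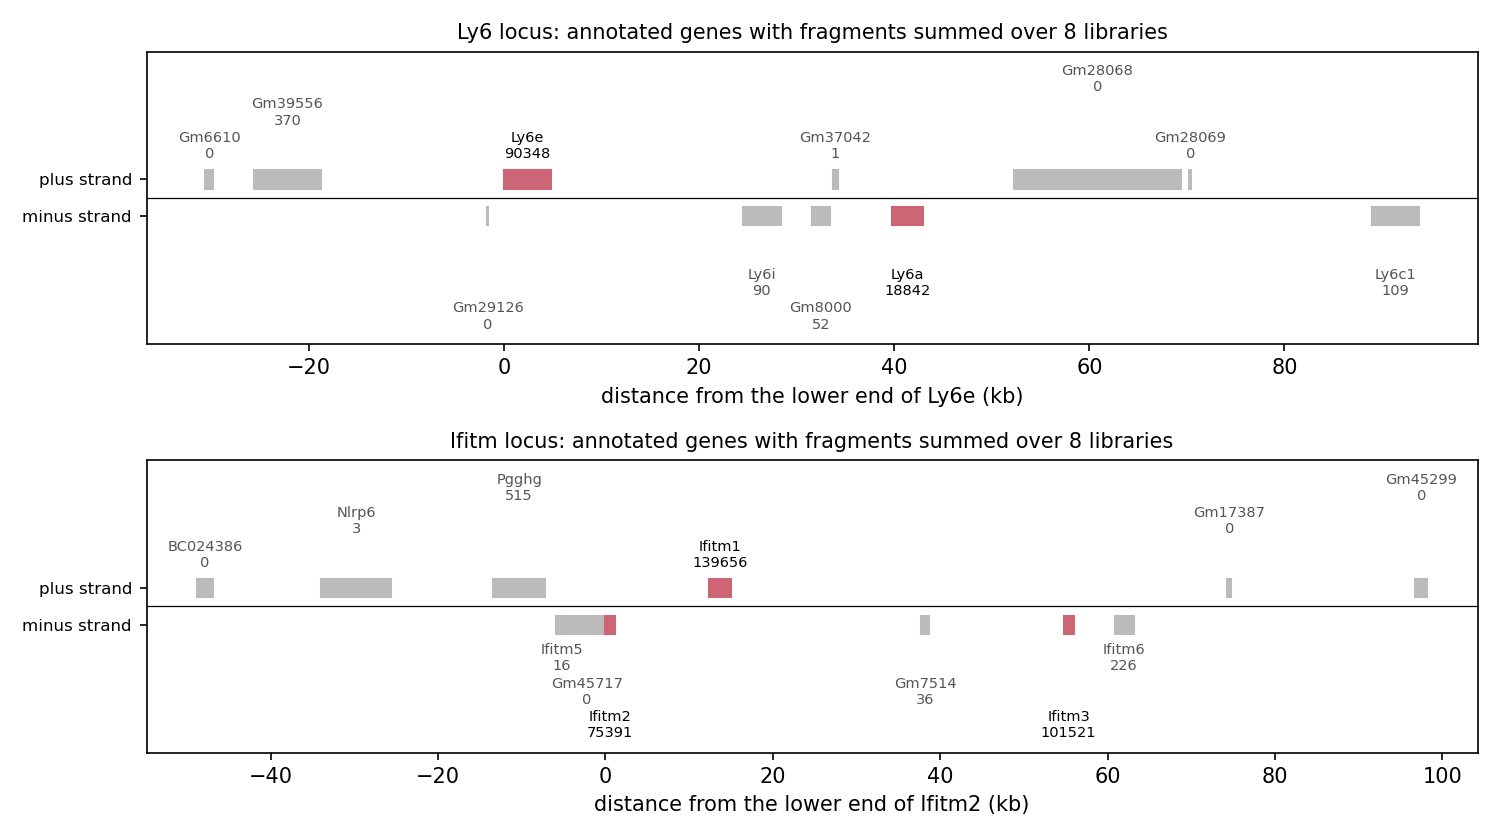
Position of the annotated genes around the Ly6 and Ifitm genes, in kb from the lower end of Ly6e (top) and Ifitm2 (bottom), by strand, with the fragments of each gene summed over 8 libraries. The 5 genes described (red) hold 18842 to 139656 fragments each, and every other gene shown (grey) at most 515.

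Promoter sequence was given by RefSeq for 3 of the 5 genes, as windows of GRCm38.p6 from 250 bases before to 50 bases after the start site. They are shown because these 3 genes vary together between mice but differ in how their level stood between the genotypes. Capitals mark matches to the interferon-response core GAAANNGAA and the STAT core TTCNNNGAA on either strand. The windows are chr7:140967826-140968125 (plus strand) for Ifitm1, chr7:140955912-140956211 (minus strand) for Ifitm2 and chr7:141010695-141010994 (minus strand) for Ifitm3, each printed 5′ to 3′ on the strand of its gene.
Ifitm1: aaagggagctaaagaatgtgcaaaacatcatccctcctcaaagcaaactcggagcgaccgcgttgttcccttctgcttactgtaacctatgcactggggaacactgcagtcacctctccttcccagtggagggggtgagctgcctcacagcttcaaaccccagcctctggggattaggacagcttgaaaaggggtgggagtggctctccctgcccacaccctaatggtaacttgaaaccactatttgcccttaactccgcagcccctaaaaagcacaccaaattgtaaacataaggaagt
Ifitm2: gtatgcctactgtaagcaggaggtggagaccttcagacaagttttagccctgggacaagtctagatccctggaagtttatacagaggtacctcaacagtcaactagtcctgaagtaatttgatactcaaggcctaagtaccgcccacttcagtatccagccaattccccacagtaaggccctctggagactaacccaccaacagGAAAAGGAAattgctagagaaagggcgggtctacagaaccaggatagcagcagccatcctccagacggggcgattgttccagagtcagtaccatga
Ifitm3: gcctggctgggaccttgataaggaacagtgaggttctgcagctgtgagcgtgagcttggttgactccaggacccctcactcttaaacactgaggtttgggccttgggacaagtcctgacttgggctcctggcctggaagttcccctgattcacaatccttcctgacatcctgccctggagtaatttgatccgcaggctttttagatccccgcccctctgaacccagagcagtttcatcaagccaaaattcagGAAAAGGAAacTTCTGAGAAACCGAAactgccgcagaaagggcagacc

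The windows of Ifitm2 and Ifitm3 held interferon-response cores and that of Ifitm1 held none. Ifitm2 had 1 match, GAAAAGGAA, starting at -46. Ifitm3 had 2 matches, GAAAAGGAA at +3 and GAAACCGAA at +20, and the second overlapped a STAT core, TTCTGAGAA, at +14. Of 32851 promoters of the same length, 8.56% held GAAANNGAA, 0.624% held it at least 2 times, 8.30% held TTCNNNGAA and 1.07% held both. Of the forms of the GATA site only AGATAA was searched, which was present in 11.2% of promoters and in none of the 3 windows. The related form TGATAA, which was not searched, can be read near the 5′ end of the Ifitm3 window. A match is a run of letters and not a measured site, and the RefSeq start of Ifitm1 lies inside the longer gene model used for counting.

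Ly6a transcripts stood higher in the heterozygote-labelled mice. Wild-type replicates 1 to 4 held 87.7, 77.1, 117 and 104 CPM (fragment counts scaled to a common library size by TMM), a mean of 96.5 ± 17.6 (SD, n = 4). The heterozygote-labelled replicates 1 to 4 held 138, 124, 156 and 138 CPM, a mean of 139 ± 13.2. The lowest of these lay above the highest wild-type library, and the log2 difference was 0.53 (SE 0.15), a fold of 1.44. Without 1 library at a time the difference ran from 0.44 to 0.63. The sort required Sca-1 protein on every cell, so these are transcript levels within cells already chosen for the product of this gene. As the samples are bulk, fewer cells of a type and less RNA per cell cannot be told apart.

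Ly6e, a relative of Ly6a on the same chromosome, was the more abundant transcript and did not follow Ly6a. Wild-type replicates 1 to 4 held 571, 581, 505 and 588 CPM, against 537, 625, 488 and 553 CPM in mice with the heterozygote label. The ranges overlapped throughout, with means of 561 ± 37.9 and 551 ± 56.9 CPM (SD, n = 4 each). The log2 difference of -0.03 (SE 0.10) had no settled sign, since it turned to 0.23 when a loess fit of the counts on GC content and length was taken out. Ly6e has the highest GC content of the 5 genes, 55.4% over its longest transcript. That transcript is also the longest of the 5, at 2281 bases against 655 to 955. Which of GC content and length moved the difference was not tested. Deviations from the gene mean followed GC content across genes with r of 0.18 and 0.232 in wild-type replicates 1 and 2, -0.162 in wild-type replicate 3 and -0.0988 to -0.0342 in the heterozygote-labelled libraries. With the same fit taken out the log2 difference was 0.49 for Ly6a, 0.45 for Ifitm1, 0.15 for Ifitm3 and 0.07 for Ifitm2, each within 1 SD of the spread between replicates.

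Ifitm1 was the second gene whose levels did not overlap. Wild-type replicates 1 to 4 held 649, 695, 877 and 742 CPM, and the heterozygote-labelled replicates held 997, 1075, 983 and 973 CPM. The means were 741 ± 98.4 and 1007 ± 46.2 CPM (SD, n = 4 each), and the log2 difference was 0.44 (SE 0.11), a fold of 1.36. Wild-type replicate 3 was the nearest to the heterozygote-labelled mice for both Ly6a and Ifitm1. Without 1 library at a time the difference of Ifitm1 ran from 0.39 to 0.53. Endothelium is a cell type that also expresses Ly6a and Ifitm genes. Its 8 marker genes summed to 106 to 125 CPM in wild-type and 75.1 to 97.6 CPM in heterozygote-labelled libraries. None was at 0 in all libraries. Cdh5, Kdr, Flt4 and Stab2 were under 3 CPM in every library, and the sum was carried by Pecam1, Emcn, Vwf and Tie1, which stem cells also express. In wild type and with the heterozygote label, mean CPM was 30.3 and 16.6 for Vwf and 37.3 and 26.7 for Pecam1. It was 35.3 and 28.1 for Emcn and 11.7 and 11.1 for Tie1. Vwf ran from 25.4 to 37.6 CPM in wild-type and from 13.5 to 18.7 CPM in heterozygote-labelled libraries. The scarce genes did not all move with the sum. Mean CPM was higher with the heterozygote label for Cdh5 (0.0626 and 0.238), Kdr (0.773 and 1.44) and Stab2 (0 and 0.623). For Flt4 it was lower (0.331 and 0.0136). The part of such cells in the levels of Ly6a and Ifitm1 was not tested.

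Ifitm2 and Ifitm3, the endosomal pair, stood closer between the genotypes. For Ifitm2, wild-type replicates 1 to 4 held 444, 426, 505 and 470 CPM and mice with the heterozygote label 433, 499, 490 and 455 CPM, with means of 461 ± 34.4 and 469 ± 30.7 CPM (SD, n = 4 each). All 4 heterozygote-labelled libraries lay below the highest wild-type library, and the log2 difference of 0.03 (SE 0.09) did not keep its sign under 4 of 21 alternative treatments. For Ifitm3, wild-type replicates 1 to 4 held 553, 548, 615 and 666 CPM, against 621, 709, 666 and 651 CPM with the heterozygote label. Its means were 595 ± 55.9 and 662 ± 36.5 CPM (SD, n = 4 each). The log2 difference was 0.15 (SE 0.10), and 2 of the 4 heterozygote-labelled libraries exceeded every wild-type library.

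**Figure D2:**
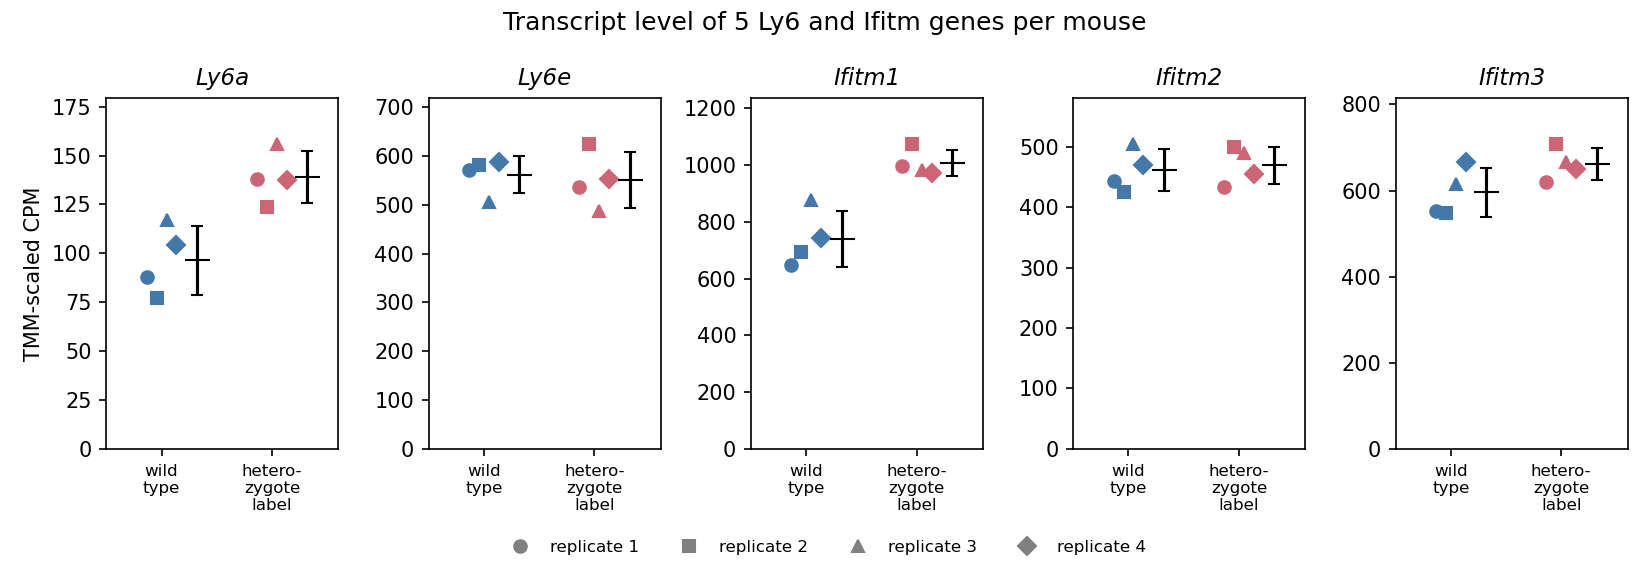
TMM-scaled CPM of each gene in each mouse, wild type in blue and heterozygote label in red, with marker shape for the replicate number and black bars for mean ± SD (n = 4). The groups separate for Ly6a (117 against 124 CPM at the nearest points) and Ifitm1 (877 against 973) and overlap for Ly6e, Ifitm2 and Ifitm3.

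Across all genes, 0% of 13992 passed an adjusted p of 0.05 by edgeR, and 792 had an unadjusted p under 0.05. Without wild-type replicate 3 the latter number was 1812, still with 0 called. In 1.65% of genes the lowest heterozygote-labelled library exceeded the highest wild-type one, and in 1.82% the reverse held. The 2 of 5 genes with that pattern were known to have it when the set was chosen, so nothing is read from the count. DESeq2 called 0.505% of 15650 genes given an adjusted p, Ifitm1 among them. Run on the genes edgeR kept, it called 0.208% of 13968, none of the 5 among them. The 5 genes were picked with this contrast known, so nothing about them is read from these calls. limma called 0 genes, with 1461 at an unadjusted p under 0.05. The p-values weigh the genotype difference against the spread between these mice.

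Within a library, Ifitm1 made up a larger share of the Ifitm fragments in the heterozygote-labelled mice. The ratio of Ifitm1 to Ifitm2 fragments, which needs no scaling between libraries, ran 1.46, 1.63, 1.74 and 1.58 over wild-type replicates 1 to 4. It was 2.30, 2.15, 2.01 and 2.14 in the heterozygote-labelled replicates, so every one lay above the wild-type range. The ratio of Ifitm1 to Ifitm3 was 1.17, 1.27, 1.42 and 1.12, against 1.61, 1.52, 1.48 and 1.49, again without overlap. Ifitm3 to Ifitm2 overlapped, at 1.22 to 1.42 against 1.36 to 1.43. These ratios share their fragments with the levels that picked out Ifitm1 and add no independent measurement.

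The same division between the Ly6 genes gave overlapping groups. Ly6a fragments per Ly6e fragment ran 0.154, 0.133, 0.231 and 0.177 over wild-type replicates 1 to 4, against 0.257, 0.198, 0.32 and 0.249 with the heterozygote label. Ly6a per Ifitm1 fragment also overlapped, at 0.13 ± 0.0131 and 0.138 ± 0.0179 (SD, n = 4 each).

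**Figure D3:**
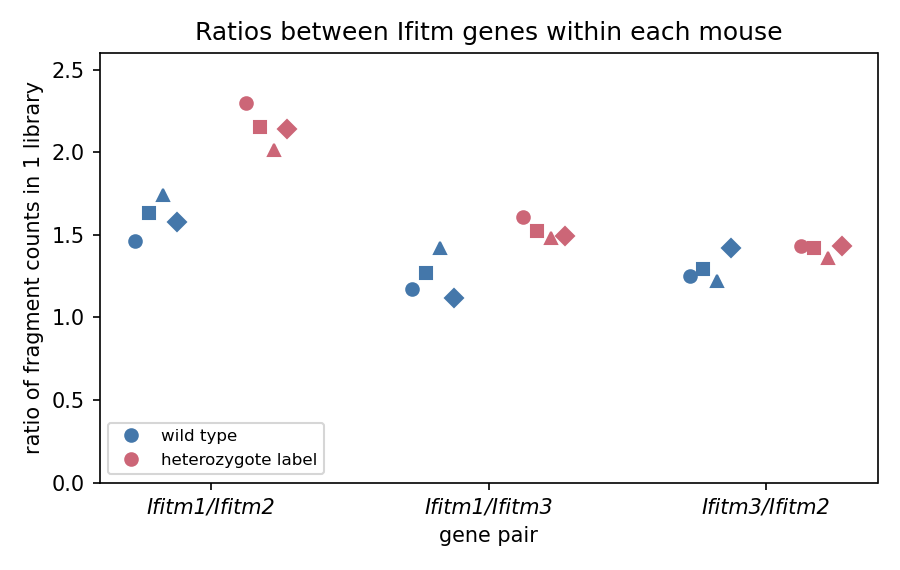
Ratio of fragment counts between pairs of Ifitm genes in each library, wild type in blue and heterozygote label in red, with circle, square, triangle and diamond for replicates 1 to 4. Ifitm1 over Ifitm2 runs from 1.46 to 1.74 in wild type and from 2.01 to 2.30 in the heterozygote-labelled mice, while Ifitm3 over Ifitm2 overlaps.

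Per kilobase of exon the Ifitm genes were among the most abundant transcripts of these cells. Mean levels over the 8 libraries in RPKM (TMM-scaled CPM per kilobase of exon) were 927 for Ifitm3, 799 for Ifitm1 and 710 for Ifitm2, which placed them 37th, 47th and 53rd of 13992 genes. Ly6e followed at 146.9 (492nd) and Ly6a at 97.6 (791st). Ifitm3 lay above Ifitm1 in 8 of 8 libraries, by 1.01 to 1.45 times, though their ranges overlapped. Ifitm1 lay above Ifitm2 in 5 of 8, and Ly6e above Ly6a in 7 of 8, with ranges that also overlapped. Ifitm2 lay above Ly6e in every library, by 4.23 to 5.80 times, and their ranges did not overlap.

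The order among the Ifitm genes depended on which bases were counted as their length. Ifitm2 shares 268 of its 655 exon bases with Gm45717, a gene model on the same strand, and fragments in that stretch were assigned to neither gene. Gm45717 itself had 0 counts. Over the 387 unshared bases Ifitm2 ranked first of the 5 genes, and with the length of the longest transcript Ifitm1 did. The step from Ifitm2 to Ly6e kept its direction and changed its size, from 710 against 146.9 RPKM to 710 against 244 by longest transcript and 1202 against 146.9 by unshared bases. Among runs of 75 bases, the read length, 42.0% of those in Ifitm2 also occur in transcripts of other genes, against 2.38% in Ly6a, 0.743% in Ifitm1, 0.662% in Ifitm3 and 0 in Ly6e. Most of the Ifitm2 runs, 33.4% of all, are shared with Gm45717, which is the overlap given above and not a further loss. Of genes elsewhere, Gm8865 shared 8.61% and Gm11951 6.88%. The level of Ifitm2 is therefore a lower estimate in both genotypes.

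Coding sequences were most alike between Ifitm2 and Ifitm3, at 75.8% identity, with 63.5% between Ifitm1 and Ifitm3 and 60.2% between Ifitm1 and Ifitm2. Ly6a and Ly6e shared 52.7%. Ly6a is closer to Ly6i (86.4%) and Ly6c2 (81.7%), both scarce in these cells.

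All 5 genes varied less between mice of 1 genotype than the median gene of at least 10 CPM. The biological coefficient of variation, the spread between replicates after counting noise, was 0.122 for Ifitm2, 0.123 for Ifitm3, 0.128 for Ly6e, 0.131 for Ifitm1 and 0.169 for Ly6a. The median of 7812 genes with at least 10 CPM was 0.241, and 0.947% to 3.29% of those genes lay below the 4 genes other than Ly6a. For Ly6a 18.9% did. That set includes genes far less abundant than these 5, and no comparison with genes of like level was made.

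The Ifitm genes deviated together from mouse to mouse, and Ly6a deviated against Ly6e. Ly6a also tended to go with the Ifitm genes, but this rested largely on 2 libraries. After the mean of each genotype was removed from log2 CPM, Pearson's r over the 8 libraries was 0.77 for Ifitm2 with Ifitm3, 0.75 for Ifitm1 with Ifitm2 and 0.60 for Ifitm1 with Ifitm3. Leaving out 1 library kept these between 0.46 and 0.96. For Ly6a with Ly6e r was -0.71, and -0.85 to -0.55 without 1 library. Wild-type replicate 3 and heterozygote-labelled replicate 3 show this most plainly, each with the highest Ly6a and the lowest Ly6e of its genotype. The same 2 libraries had the highest levels of the granulocyte genes S100a8 (91.6 and 87.7 CPM, against 20.1 to 41.3 in the others), S100a9 (30.6 and 29.9) and Camp (20.9 and 18.7), but not of Elane or Mpo. The part of such cells in the Ly6a and Ly6e levels was not tested. Ly6a also went with the Ifitm genes, at 0.63 with Ifitm2 (0.38 to 0.93 without 1 library), 0.58 with Ifitm1 and 0.51 with Ifitm3 (0.27 to 0.78). The value with Ifitm1 fell to 0.04 without wild-type replicate 3. Without wild-type replicates 2 and 3, where Ly6a deviated most, r of Ly6a was 0.14 with Ifitm2, 0.05 with Ifitm1 and 0.28 with Ifitm3. With Ly6e it stayed at -0.70. Ly6e had r of -0.22, -0.20 and 0.17 with Ifitm1, Ifitm2 and Ifitm3, each of which changed sign when a library was left out. The points share library depth and base composition, and these values are descriptions of 8 mice.

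**Figure D4:**
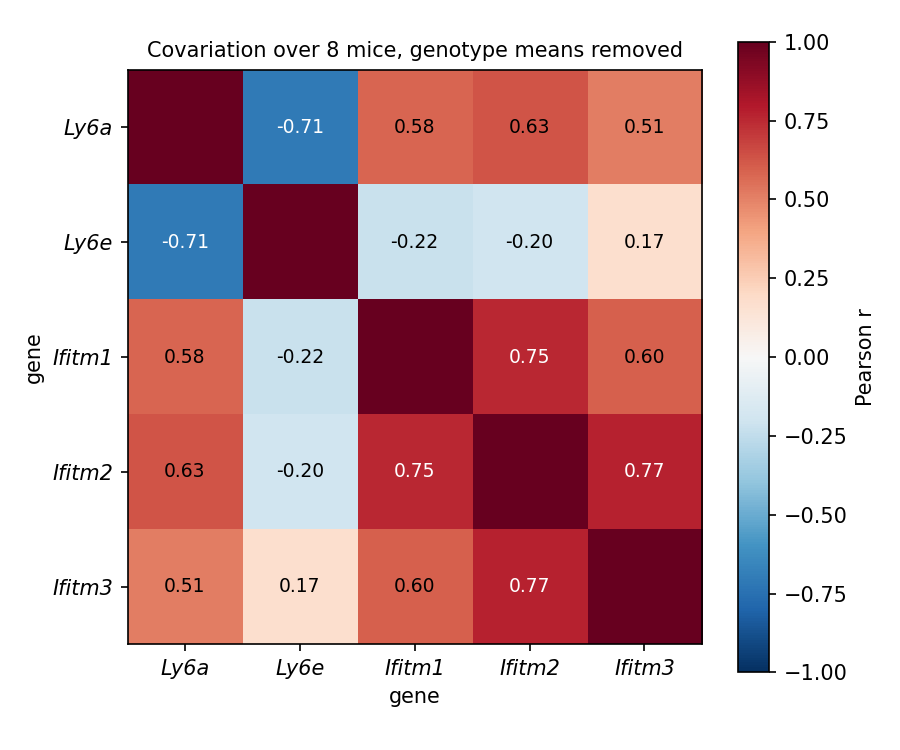
Pearson's r of log2 CPM between the 5 genes over 8 libraries, after subtraction of each genotype's mean; colour runs from -1 (blue) to 1 (red). The 3 Ifitm pairs lie between 0.60 and 0.77, and Ly6a with Ly6e at -0.71.

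Genes with the most similar pattern over the 8 libraries were of varied kinds. Their r, also with genotype means removed, are the largest of 7807 values and so are high in part by selection. The libraries also share depth and base composition, and nothing is read from the size of these r. Among 7807 genes of at least 10 CPM, those with the highest r to Ly6a were Zfp952 (0.986), the translation elongation factor subunit gene Eef1b2 (0.985) and Gm17711 (0.978). For Ly6e they were Zfp113 (0.985), Tmem87b (0.972) and Rbbp4 (0.961), a histone-binding subunit of several chromatin complexes. For Ifitm1 they were Smim14 (0.994), Cep57 (0.983) and Gm10146 (0.983). For Ifitm2 they were Tmsb4x (0.982), which encodes the actin-binding thymosin beta-4, Elob (0.981) and Smim27 (0.980). For Ifitm3 they were Ppp2cb (0.973), a phosphatase catalytic subunit, Gm15446 (0.967) and Ttc33 (0.965).

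Other members of both families were scarce. Of 34 other Ly6 family genes in the files, 15 had 0 counts in all libraries, 11 had at most 90 counts over all 8, and 8 were tested. Cd59a, which shields cells from complement, was the most abundant with 42.6 ± 14.9 CPM (wild type) and 43.8 ± 5.39 CPM (heterozygote label; SD, n = 4 each). Plaur, the urokinase receptor, measured 15.6 ± 2.37 and 9.39 ± 2.06 CPM, with all 4 heterozygote-labelled libraries below all wild-type ones and a log2 difference of -0.73 (SE 0.27). Cd59b measured 3.85 ± 0.19 and 4.84 ± 2.55 CPM. Lypd6b, Ly6c1, Lynx1, Ly6c2 and Gpihbp1 stayed under 5 CPM in both genotype means and had 0 counts in at least 2 libraries each. None of the 8 passed the threshold; 6 log2 differences were positive and 2 negative, with a median of 0.40 that turned to -0.35 when only genes of at least 10 CPM were kept and was 0.69, 0.83 and 0.79 without wild-type replicate 1, 2 or 4. Ifitm6 was the other Ifitm gene tested, at 2.02 ± 0.956 and 0.597 ± 0.509 CPM.

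Interferon-stimulated genes other than the 5 gave no member past the threshold, with 32 positive and 16 negative log2 differences among 48 tested. Their median was 0.12, beside -0.018 and 48.0% positive over all genes. It was 0.06 without heterozygote-labelled replicate 2, and 0.05 with scaling by library size alone, where the median of all genes was -0.0821. The most abundant were the immunity-related GTPase genes Iigp1, at 610 ± 182 (wild type) and 685 ± 87.3 CPM (heterozygote label), Ifi47 (604 ± 86.2 and 614 ± 78.6), Igtp (303 ± 36.6 and 307 ± 22.8) and Irgm1 (222 ± 35.6 and 252 ± 20.7; SD, n = 4 each). Their log2 differences were 0.17, 0.02, 0.02 and 0.18. Chosen after their values were seen, Rtp4 had a log2 difference of 0.51 (SE 0.16) and Ifi44 of 0.45 (SE 0.19), both with overlapping groups. Bst2, the gene of tetherin, was chosen in the same way and was the 1 listed gene with all heterozygote-labelled libraries above wild type, at 86.6 ± 8.99 and 95.9 ± 0.645 CPM. The mean of the 48 genes, with genotype means removed, had r between -0.54 (Ifitm1) and 0.43 (Ly6e) with the 5 genes over the 8 libraries.

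Of 20 receptor and signalling genes of the interferon pathway tested, none passed the threshold, 4 log2 differences were positive and 16 negative, with a median of -0.21. That median was -0.07 with the GC and length trend taken out, -0.02 with the replicate block as well, -0.12 over genes of at least 10 CPM, -0.11 without heterozygote-labelled replicate 2 and -0.13 without wild-type replicate 1 or 4. From mouse to mouse the mean of these genes went against Ifitm1 (r -0.83) and Ifitm2 (-0.77), with -0.40, -0.39 and 0.22 for Ly6a, Ifitm3 and Ly6e. By rank (Spearman's rho) the values for Ifitm1 and Ifitm2 were -0.60 and -0.57. The mean weighs all genes alike, also the scarce Irf8, Socs1 and Socs3 (means of 2.13, 1.78 and 0.867 CPM). These values were not recomputed without 1 library. Jak1, the kinase shared by the interferon receptors, measured 255 ± 42.7 (wild type) and 254 ± 30.8 CPM (heterozygote label). Ifngr1, a chain of the interferon gamma receptor, measured 160 ± 9.06 and 154 ± 22.3 CPM, and Irf9, a DNA-binding factor of the pathway, 141 ± 20.3 and 149 ± 22.7 CPM (SD, n = 4 each). Irf1, an interferon-induced transcription factor chosen after its values were seen, measured 34.0 ± 6.28 and 22.6 ± 3.59 CPM, with all heterozygote-labelled libraries below wild type.

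Genes that act on the 2 kinds of protein gave no call either. The 5 genes for Ifitm modifiers and partners had 4 positive log2 differences and a median of 0.25, which was 0.07 without heterozygote-labelled replicate 3 and 0.16 without wild-type replicate 3. Among them Zdhhc20, a palmitoyltransferase, measured 291 ± 55.6 and 346 ± 9.65 CPM, and Zmpste24, a metalloprotease, 157 ± 25.0 and 187 ± 22.8 CPM. Nedd4, a ubiquitin ligase, measured 560 ± 95.3 and 610 ± 47.6 CPM and Vapa 302 ± 46.3 and 292 ± 21.1 CPM (SD, n = 4 each). Of 25 tested genes that make or attach GPI anchors, 11 log2 differences were positive and 14 negative, with a median of -0.04 (-0.15 to -0.02 without 1 library). From mouse to mouse their mean went against Ifitm2 (r -0.92), Ifitm3 (-0.70), Ifitm1 (-0.63) and Ly6a (-0.47), with 0.05 for Ly6e, over 8 libraries that share depth and base composition. By rank the values were -0.86, -0.76, -0.74, -0.43 and 0.00 in the same order. This mean too weighs all genes alike, also the scarce Pgap1 and Pigo (means of 1.21 and 2.28 CPM), and was not recomputed without 1 library. The most abundant GPI anchor genes, Dpm3, Pigx, Pigp and Pigk, had log2 differences of 0.29, 0.15, 0.05 and 0.20. Pigk, a subunit of the enzyme that attaches the anchor, had all heterozygote-labelled libraries above wild type, at 87.8 ± 5.89 and 101 ± 3.33 CPM.

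**Figure D5:**
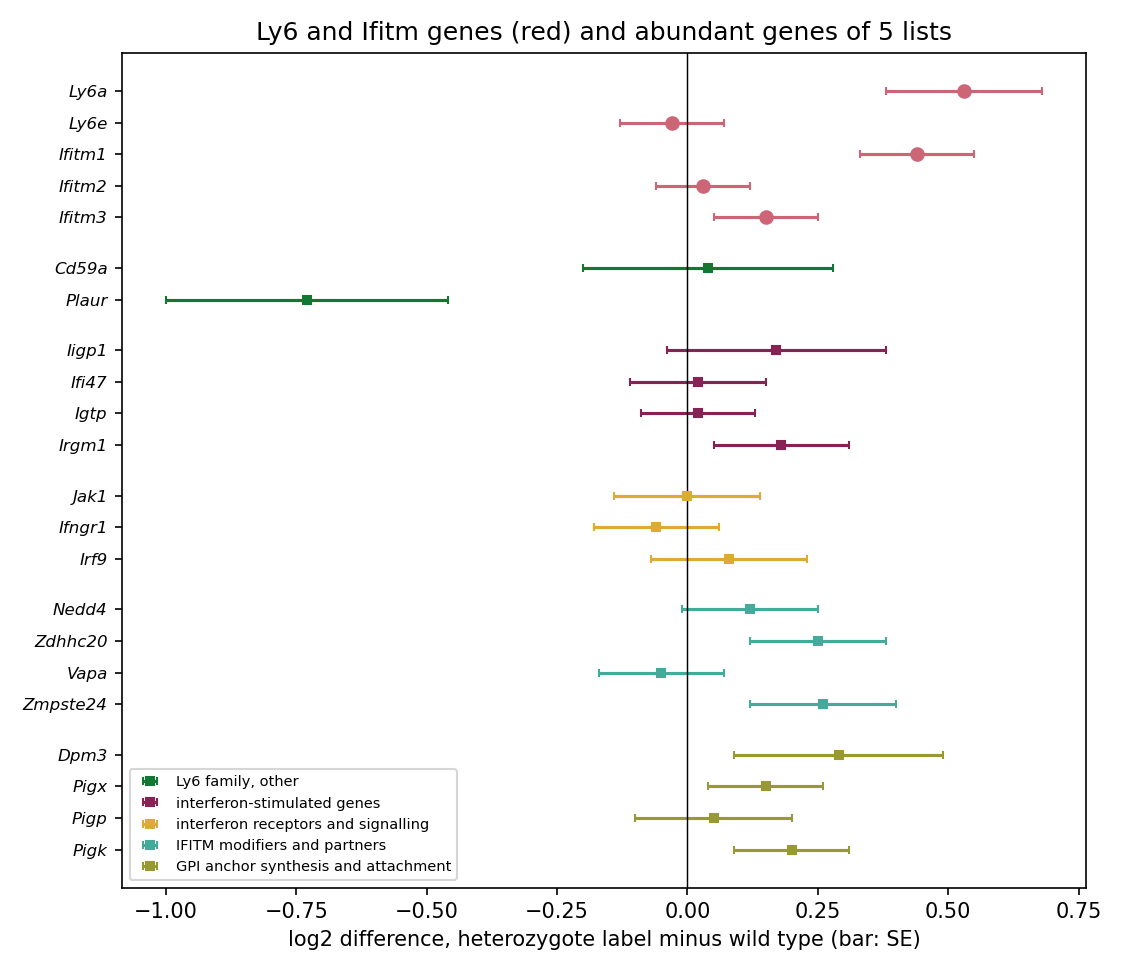
Log2 difference, heterozygote label minus wild type, with its SE, for the 5 genes (red circles) and for the abundant genes named from 5 lists (squares, coloured by list), leaving out those under 10 CPM. Ly6a lies at 0.53, Ifitm1 at 0.44 and Plaur at -0.73; Rtp4 (0.51) and Ifi44 (0.45), which are not drawn, lie beside Ly6a and Ifitm1.

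The libraries held 16750778 to 22861884 assigned fragments, and each of the 5 genes had at least 1587 in every library. Gata2 transcript, the targeted gene summed over all its exons, was 29.1 to 45.3 CPM in wild-type and 35.5 to 61.9 CPM in heterozygote-labelled libraries (log2 difference 0.33, SE 0.23). It was thus not lower with the label. A sum over all exons cannot show whether part of 1 allele was lost, so the genotype rests on the label. Of the other sort markers, Kit stood at 164 ± 43.2 and 148 ± 20.7 CPM, Slamf1, the gene of CD150, at 34.0 ± 10.4 and 24.0 ± 3.68 CPM, and Cd48 at 23.5 ± 2.59 and 24.4 ± 6.41 CPM (SD, n = 4 each). The 9 stem cell markers were all detected and summed to 606 to 970 CPM in wild-type and 624 to 751 CPM in heterozygote-labelled libraries. The 6 T and NK cell markers summed to 227 to 431 and 312 to 510 CPM with Cd3e, Cd3g, Cd8a and Ncr1 at 0, nearly all of it Nkg7, a cytotoxic granule gene. The 6 stromal markers summed to at most 12.7 CPM, with Pdgfra at 0. Granulocyte (7 genes), monocyte (6), erythroid (7, with Slc4a1 at 0) and megakaryocyte (5) sums overlapped between the genotypes, the last at 559 to 878 and 448 to 729 CPM. The part of these cells in the levels of the 5 genes was not tested.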

How the data were processed

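Total RNA of sorted bone marrow stem cells from 8 mice was depleted of ribosomal RNA and sequenced as strand-specific paired reads, per the labels' protocols. Per the submitters' processing notes, Trim Galore and cutadapt served for trimming and STAR 2.5.1b for alignment, with GRCm38 as the build. The deposited values are raw fragment counts per gene of GENCODE M17, made with featureCounts in reverse-stranded mode, without multiply mapped or ambiguous fragments, per the file headers. The version is 1.6.2 in the headers and 1.5.1 in the notes. The deposited exon length per gene is not a measurement, and gave RPKM.

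Groups and replicate numbers came from the library descriptions. Symbols and gene models came from GENCODE M21 of the same build, and promoters from RefSeq GRCm38.p6. edgeR 4.0.16 in R 4.3.3 was run with filterByExpr, TMM and robust quasi-likelihood fits on genotype alone, with two-sided p-values adjusted by the Benjamini-Hochberg method over 13992 genes at 0.05. Log2 CPM for correlations had a prior count of 2. DESeq2 1.42.0, limma 3.58.1 and other scalings, filters, terms and left-out libraries were alternatives. The procedure was tested on simulated data. Every pair of libraries differed by more than sampling noise (lowest chi-square per degree of freedom 35.4). PCR copies were not marked, so counting error alone would understate the spread.

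The 5 genes, the gene lists and the markers were chosen with earlier results of these data known. Genes named are the 5, the 3 most alike to each by r at a mean of at least 10 CPM, up to 4 of the most abundant genes of each list, every other Ly6 or Ifitm gene tested, and the sort markers; others are said to be chosen after their values were seen. For 1 gene of this rule and 1 marker list, values are not reported here.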

Additional observations from a re-analysis of the deposited data

Results flagged for a closer look

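Among 60 groups of 4 libraries (30 genes in both genotypes), 3 had a library far from the others, where chance flags about 1 in 20. Lypd6b was lowest in heterozygote-labelled replicate 1, at -3.34 log2 CPM, with the other libraries of that genotype at 2.20 to 3.10. Ly6c1 was lowest in heterozygote-labelled replicate 3, at -3.34 log2 CPM, with the others at 0.07 to 0.57. Both values stand for 0 counts. Zmpste24, which encodes a protease that interacts with Ifitm proteins, was highest in wild-type replicate 1, at 7.60 log2 CPM, with the others at 7.15 to 7.19. None of these is among the 5 Ly6 and Ifitm genes described, whose groups held no such library.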

How the results depend on the processing

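Under 21 alternatives, Ly6a, Ifitm1 and Ifitm3 kept a positive log2 difference in all. Over the other scalings, filters, terms and tools it ran from 0.47 to 0.58 for Ly6a, 0.39 to 0.49 for Ifitm1 and 0.09 to 0.18 for Ifitm3. Leaving out 1 library gave 0.44 to 0.63, 0.39 to 0.53 and 0.12 to 0.21 in the same order. Ly6e kept its sign in 15 of 21, with -0.09 to 0.03 on leaving out 1 library and 0.23 with the GC and length trend removed, with or without a replicate block. Ifitm2 kept its sign in 17, at -0.01 to 0.07 on leaving out 1 library. Scaling by library size alone moved the median of all genes to -0.0821. edgeR called 0 genes under each of its settings and each left-out library; DESeq2 called 79, and 29 on the genes edgeR kept, the last chosen after seeing the data. By the longest transcript Ifitm1 ranked 1 and Ifitm3 2. By unshared exon bases, also added later, Ifitm2 ranked 1, Ifitm3 2 and Ifitm1 3. The median of the Ifitm modifiers, 0.25, was 0.11 by limma and 0.07 without heterozygote-labelled replicate 3. The cause of these changes was not tested, save for the filter and length changes, which follow from their construction.

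Whether the replicate numbers pair the mice was not settled. Deviations of same-numbered libraries correlated at 0.0437, 0.00565, 0.0961 and 0.0215. The best match was the own number for replicates 1 and 3 but not for 2 and 4. By Xist and Y-linked counts, replicates 1 and 4 of both genotypes were female and replicates 2 and 3 male. Same-numbered mice thus matched in sex. With the replicate block, 946 genes had an unadjusted p under 0.05, 0 were called, and Ly6a and Ifitm1 differed by 0.54 and 0.45. Each of the 5 genes had at least 1587 fragments in every library, so counting noise adds little to their spread. The common biological coefficient of variation over all genes was 0.511.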
